A study of Mus musculus with 10 samples.

Results

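The Slc25 family of mitochondrial carriers was followed through single mouse oocytes arrested at metaphase II, the stage at which an egg is ovulated. The members were the protein-coding genes whose mouse symbol starts with Slc25a, 47 of the 35501 genes to which the deposited transcript values could be summed, with 250 transcripts among them. The rule used only the symbol and no measured value. The genes had a mean of at least 1 TPM (a level corrected for transcript length and scaled to the same total in each library) in 32 of 47 cases, and these 32 entered the test of TubA against control together with all other genes at that level, 11664 in all.

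Germinal vesicle oocytes, which are still arrested before the meiotic divisions, were taken from ovaries of ICR mice (age 6 to 8 weeks) and were matured in M16 medium at 37 °C in 5% CO2 for 16 h. The TubA group (5 libraries) had TubA at 0.1 µg/mL for the 16 h, and the control group (5 libraries) was matured alike, with no vehicle named in the labels. TubA is a common short name of tubastatin A, an inhibitor of the cytoplasmic deacetylase HDAC6, but the labels give only the short name. Each library was made with Smart-seq2, a full-length method for polyadenylated RNA, from 1 oocyte. No genotype beyond the strain is given, and the labels tie no oocyte to an animal or a culture, so n counts libraries of 1 oocyte. Every p-value is set against the spread between these libraries. What oocytes, animals, cultures and technique each add to that spread cannot be told apart.

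The files give no read counts and TPM keeps no depth, so the depth behind each value is unknown. Between 10521 and 11698 genes reached 1 TPM in a library. The oocyte markers used for the check (10 genes, among them Gdf9 and the zona pellucida genes) summed to 29464 to 39829 TPM in TubA libraries and 28373 to 39517 TPM in control libraries. H1foo led this sum with a mean of 14302 TPM, and the zona genes varied widely. Zp1 ran from 129 to 3088 TPM in TubA and 105 to 2552 TPM in control libraries. Zp2 ran from 206 to 4518 TPM in TubA and 93.1 to 3256 TPM in control libraries. Zp3 ran from 750 to 8123 TPM in TubA and 406 to 5363 TPM in control libraries. The 9 markers of cumulus and granulosa cells, which surround the oocyte, summed to 13.4 to 25.3 TPM in TubA libraries and 15.4 to 22.4 TPM in control libraries. Foxl2 was listed at 0 in every library and Cyp19a1 averaged 11.6 TPM over the 10 libraries. The 4 markers of blood and immune cells summed to 2.39 to 8.44 TPM in TubA libraries and 2.53 to 23.2 TPM in control libraries. Clustering on the other genes tested, without the Slc25 members, was cut to give 2 sets of libraries, which the labels do not name. The number of sets was thus fixed beforehand, and how clearly they separate was not measured. TubA replicates 1 and 2 with control replicates 1, 2 and 3 formed set A, and TubA replicates 3, 4 and 5 with control replicates 4 and 5 formed set B. What separates the sets was not tested.

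Carriers of this family sit mostly in the inner mitochondrial membrane, are built from repeats of a pair of membrane-spanning helices, and exchange or import the nucleotides, phosphate, keto acids, amino acids and cofactors that the matrix needs. They are encoded in the nucleus, made in the cytosol and inserted by the small Tim chaperones and the TIM22 complex. The metaphase II oocyte makes little or no new RNA and holds a large store of mitochondria, so its messenger RNA is mainly what was stored during growth.

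The family was carried by a few abundant genes. Its summed level was 1091 ± 129 TPM in TubA oocytes and 1121 ± 81.5 TPM in control oocytes (SD, n = 5 each). The 3 most abundant members, the S-adenosylmethionine carrier gene Slc25a26, the germ-cell ADP/ATP carrier gene Slc25a31 and the glycine carrier gene Slc25a38, held 36.03% of the family's TPM, and the 8 most abundant held 65.9%. Mean levels were at least 50 TPM for 9 members, at least 20 TPM for 17, at least 5 TPM for 23 and at least 0.1 TPM for 40. At the other end, 11 members stayed under 1 TPM in all libraries. The liver-type gene Slc25a47 and the ATP-Mg/phosphate carrier gene Slc25a41 were listed at 0 in all 10.

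**Figure D1:**
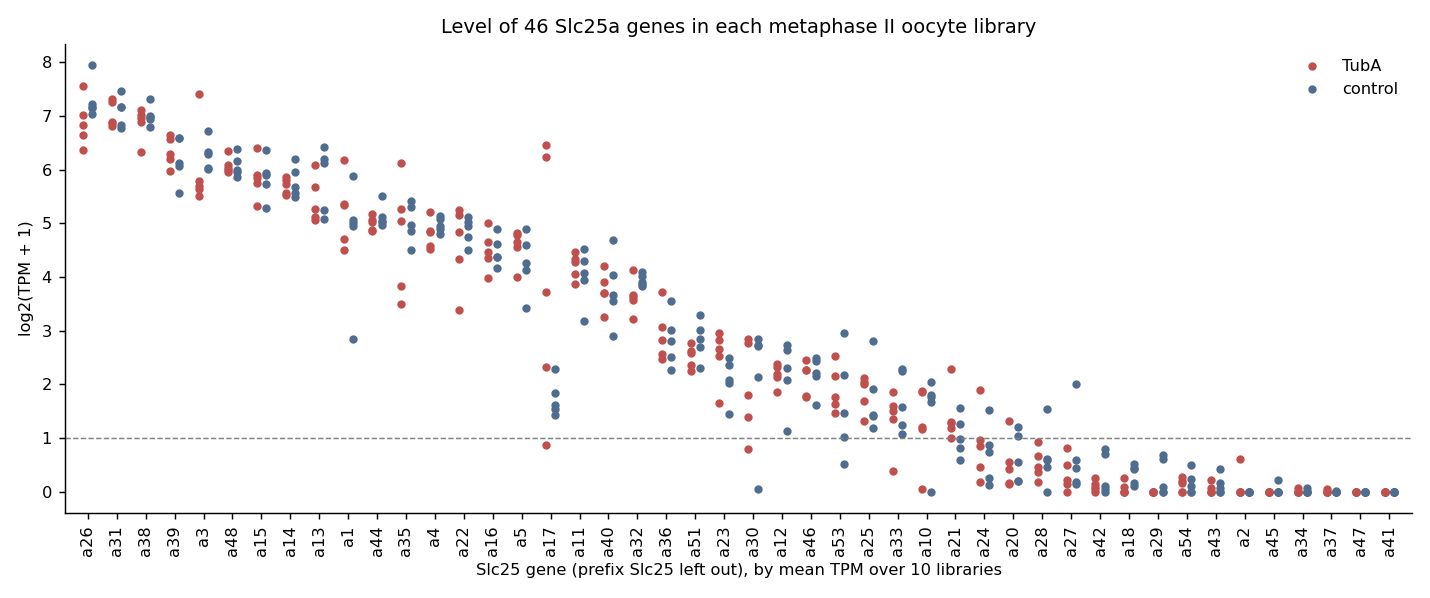
Level of 46 Slc25a genes as log2(TPM + 1), ordered by mean TPM, with 1 red point per TubA library left of 1 blue point per control library and a dashed line at 1 TPM. The 3 genes at the left exceed a mean of 100 TPM, 25 of the genes shown stay at or above the line in all 10 libraries, and the red and blue points overlap for each gene.

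With TubA, none of the 32 tested members passed a Benjamini-Hochberg adjusted p of 0.05 in limma (lowest adjusted p = 0.9999), and 1, Slc25a17, had an unadjusted p under 0.05. Over all genes tested, 0.00857% passed the adjusted threshold and 2.51% had an unadjusted p under 0.05 (1.13% higher with TubA and 1.38% lower), so the family's 3.125% at the unadjusted threshold was near the background. For 0 of the 47 members were all libraries of one group above all libraries of the other, against 0.454% of all genes tested. The sign of the log2 difference was positive for 13 tested members and negative for 19, and the median difference was -0.035, beside 0.0097 over all genes tested. The 95% interval lay within a 2-fold change of TPM + 1 either way for 20 members, or 62.5%, against 57.0% of all genes tested. For members of a few TPM this does not bound the change of TPM itself. For the other 12 tested members the interval reached past 2-fold.

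**Figure D2:**
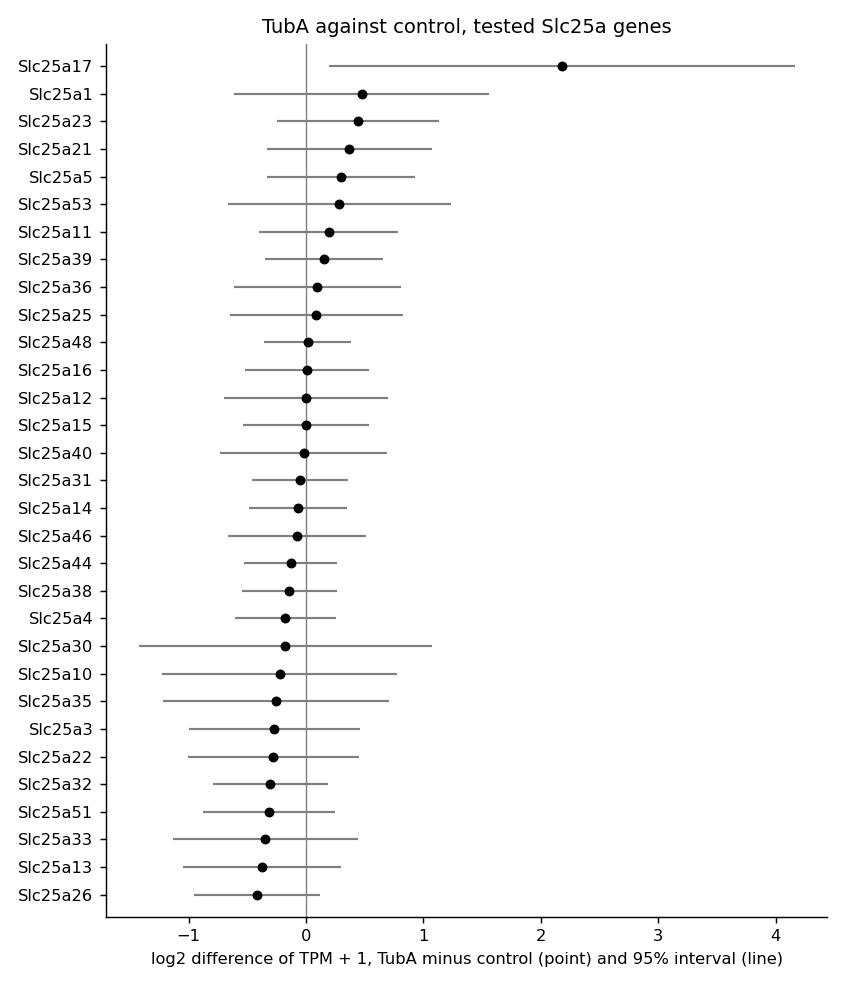
Difference in log2(TPM + 1), TubA minus control, for 31 tested Slc25a genes, with the limma estimate as a point and its 95% interval as a line. The interval of Slc25a17 alone leaves out 0, at 0.19 to 4.16, with an adjusted p of 0.9999, and the other points lie between -0.42 and 0.47.

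Of the adenine nucleotide and phosphate carriers, which exchange ADP for ATP and bring in phosphate for ATP synthesis, the 4 members were at or above 1 TPM in every library, and 0 passed the test. Slc25a31 (ENSMUSG00000069041, GRCm38 chr3:40708855-40726096, plus strand), the ADP/ATP carrier known from mouse germ cells, had 153, 117, 112, 158 and 116 TPM in TubA replicates 1 to 5, against 143, 176, 109, 142 and 113 TPM in control replicates 1 to 5. Its groups overlapped almost completely, with a log2 difference of -0.051 ± 0.19 (SE). The muscle-type carrier gene Slc25a4 was at 27.2 ± 5.55 TPM in TubA oocytes and 30.5 ± 2.93 TPM in control oocytes, and the broadly expressed Slc25a5 was at 23.02 ± 4.88 TPM in TubA oocytes and 19.2 ± 7.11 TPM in control oocytes (SD, n = 5 each). Summed over transcripts, the germ-cell gene was thus above both of the other ADP/ATP carrier genes in each library, and the ranges of Slc25a4 and Slc25a5 overlapped. Of the 31-base words of the Slc25a5 transcripts, 15.5% also occur in transcripts of other genes, so its value depends on how reads were shared out.

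The phosphate carrier gene Slc25a3 (ENSMUSG00000061904, chr10:91116574-91124059, minus strand) had 50.5, 54.4, 48.8, 169 and 44.2 TPM in TubA replicates 1 to 5, against 79.2, 64.04, 77.3, 104 and 63.7 TPM in control replicates 1 to 5. TubA replicate 4 was the highest of all libraries and the other 4 TubA libraries lay below all 5 control libraries. On the log2 scale the difference was -0.27, with a 95% interval of -0.999 to 0.46. Most of this gene's TPM belonged to a transcript that is not annotated as protein-coding. Slc25a3-205, a processed transcript of 507 bases, held 85.0% to 92.4% of the gene in every library. The protein-coding transcripts together were at 7.399 ± 5.52 TPM in TubA oocytes and 9.53 ± 3.54 TPM in control oocytes (SD, n = 5 each), 11.2% of the gene. Ranked by protein-coding TPM alone, the gene was 19 in the family, while it was 5 by its summed level.

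The sequences below show where the Slc25a3 transcripts part. Slc25a3-206 and Slc25a3-201 are the main protein-coding forms, which carry alternative exons at this place. All 3 run into the same exon, in lower case, and the capitals mark the last 30 bases of the exon before it, which has 101 bases in Slc25a3-205, 125 in Slc25a3-206 and 122 in Slc25a3-201. The spans on GRCm38, minus strand, including the intron, are chr10:91119677-91120654, chr10:91119677-91122236 and chr10:91119677-91121951.
Slc25a3-205: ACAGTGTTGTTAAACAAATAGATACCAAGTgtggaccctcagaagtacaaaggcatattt
Slc25a3-206: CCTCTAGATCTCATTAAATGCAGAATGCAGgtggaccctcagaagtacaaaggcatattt
Slc25a3-201: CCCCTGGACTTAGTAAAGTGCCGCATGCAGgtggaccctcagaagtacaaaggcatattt
The exon end before the junction separates Slc25a3-205 from both coding forms. TPM is per base of transcript, so a short transcript takes a larger share of TPM than of reads. Of the 31-base words, 5.87% in Slc25a3-205, 1.68% in Slc25a3-206 and 16.1% in Slc25a3-201 occur in no other transcript of the gene. The division thus rests largely on estimation from shared sequence.

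Slc25a4 showed the same kind of division. Slc25a4-202, a retained-intron transcript of 1275 bases, had 29.9, 18.4, 18.8, 23.9 and 24.1 TPM in TubA replicates 1 to 5, against 25.9, 28.5, 28.1, 24.7 and 20.5 TPM in control replicates 1 to 5. The protein-coding Slc25a4-201 had 6.03, 3.44, 4.16, 3.97 and 3.52 TPM in TubA replicates 1 to 5, against 3.86, 5.54, 4.83, 4.18 and 6.46 TPM in control replicates 1 to 5. The retained-intron form was above the coding form in every library, and the groups overlapped for both. It takes in 428 bases of a 777-base intron. In the sequences the shared exon end is in lower case, the capitals mark the retained intron in Slc25a4-202 and the next exon in Slc25a4-201, and the spans on the minus strand are chr8:46208368-46208427 and chr8:46207591-46208427.
Slc25a4-202: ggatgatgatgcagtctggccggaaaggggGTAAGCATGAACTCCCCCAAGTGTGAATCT
Slc25a4-201: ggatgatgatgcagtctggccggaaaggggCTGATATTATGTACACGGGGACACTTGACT
The capitals of Slc25a4-202 start with GT, the usual first letters of an intron. With protein-coding transcripts alone, Slc25a4 was at 15.9% of its summed level, and it ranked 22 in the family, while it ranked 13 by its summed level. Slc25a31, with 1 transcript in the files, and Slc25a5 kept their whole level on that measure.

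**Figure D3:**
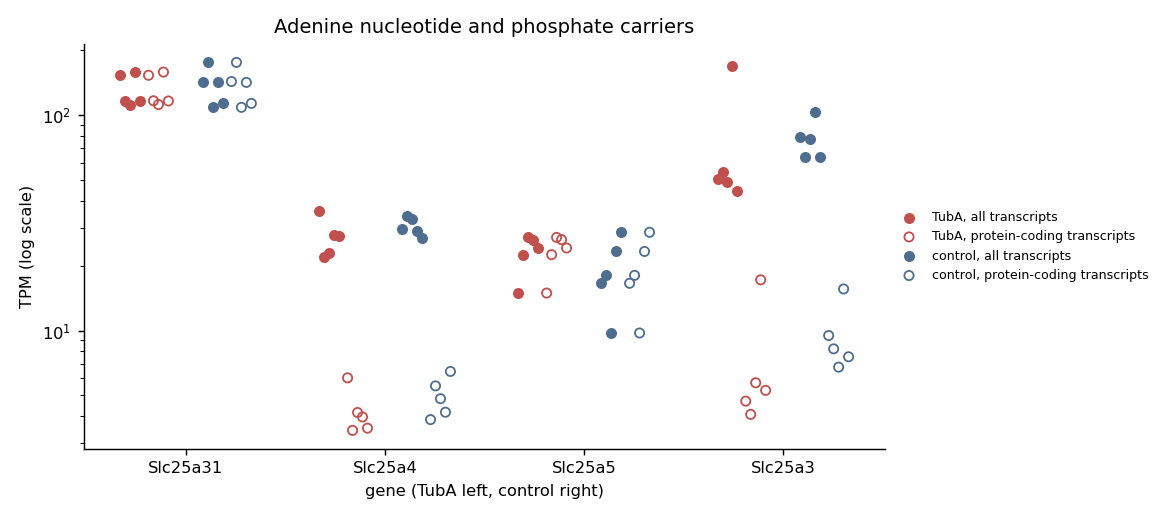
TPM on a log axis of the 3 ADP/ATP carrier genes and the phosphate carrier gene Slc25a3, with 1 point per library, TubA in red left of control in blue, filled for all transcripts and open for protein-coding transcripts. Open and filled points coincide for Slc25a31 and Slc25a5, whereas protein-coding transcripts make up 15.9% of Slc25a4 and 11.2% of Slc25a3.

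The ATP-Mg/phosphate carriers, which alter the matrix pool of adenine nucleotides and in several members respond to calcium, were low, and 0 of 2 tested passed. Slc25a23 had 2.13, 6.77, 6.12, 4.78 and 5.33 TPM in TubA replicates 1 to 5, against 4.11, 3.23, 1.73, 4.64 and 3.07 TPM in control replicates 1 to 5. TubA replicate 1 was below 4 of the control libraries, TubA replicates 2 to 5 were above all of them, and the groups overlapped. TubA minus control was 0.44 ± 0.32 on the log2 scale (SE; limma adjusted p = 0.9999). Slc25a23 lies across from Crb3 on the other strand, a gene at a mean of 226.7 TPM, and since no strand is stated the reads of the 2 genes cannot be told apart where they overlap. Slc25a25 was at 2.63 ± 0.766 TPM in TubA oocytes and 2.66 ± 1.92 TPM in control oocytes (SD, n = 5 each), and Slc25a24 was under 3 TPM in each library.

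Among the 4 carriers of di- and tricarboxylates and keto acids, which pass malate, citrate and oxoglutarate between matrix and cytosol, 4 were tested and 0 passed. Slc25a1, the citrate carrier gene, was the most abundant of them and spread most among the members with a mean of at least 20 TPM, 11.7-fold between its highest and lowest library. It ranged over 21.6 to 71.7 TPM in TubA libraries and 6.13 to 57.7 TPM in control libraries. The ranges overlapped, with control replicate 1 lowest and TubA replicate 4 highest. Slc25a11, the oxoglutarate carrier gene, was at 17.5 ± 2.94 TPM in TubA oocytes and 15.8 ± 5.23 TPM in control oocytes, and it overlaps Rnf167 on the other strand, at a mean of 10.6 TPM. The dicarboxylate carrier gene Slc25a10 and the oxodicarboxylate carrier gene Slc25a21 were lower, at 1.58 ± 1.104 TPM in TubA oocytes and 2.03 ± 1.18 TPM in control oocytes for Slc25a10 and 1.802 ± 1.16 TPM in TubA oocytes and 1.11 ± 0.565 TPM in control oocytes for Slc25a21 (SD, n = 5 each). Control replicate 1, lowest for Slc25a1, was listed at 0 for Slc25a10.

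The 9 amino acid carriers together were at 279.8 ± 17.8 TPM in TubA oocytes and 312.7 ± 33.5 TPM in control oocytes (SD, n = 5 each). Of the 6 tested, 0 passed, and all 6 differences were negative with a median of -0.14, beside 48.6% negative over all genes tested. Those of Slc25a12, at -0.00043, and Slc25a15, at -0.00089, were close to 0, and Slc25a15 turned to 0.0067 with median centring. Slc25a38, the glycine carrier that feeds haem synthesis, had 138, 118, 124, 79.3 and 128 TPM in TubA replicates 1 to 5, against 127, 110.1, 158, 122 and 125 TPM in control replicates 1 to 5. TubA replicate 4 stood below the other 9 libraries and the rest of the groups intermingled. The difference was -0.14 ± 0.19 (SE). Slc25a15, the ornithine carrier gene, had 53.01, 39.1, 56.1, 83.6 and 58.6 TPM in TubA replicates 1 to 5, against 38.1, 52.4, 58.8, 80.9 and 60.2 TPM in control replicates 1 to 5. Replicate 4 was the highest library of each group, and the difference was -0.00089 ± 0.25 (SE).

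Slc25a13, an aspartate/glutamate carrier of the malate-aspartate shuttle, had 67.2, 50.2, 37.2, 33.5 and 32.3 TPM in TubA replicates 1 to 5, against 84.4, 72.1, 68.8, 32.8 and 37.2 TPM in control replicates 1 to 5. The groups overlapped, and the log2 difference was -0.37 ± 0.31 (SE; limma adjusted p = 0.9999). Its values followed the library sets, with 50.2 to 84.4 TPM in set A and 32.3 to 37.2 TPM in set B. Slc25a35 and Slc25a5 also parted by set, but were higher in set B. Slc25a35 was at 10.3 to 30.2 TPM in set A and 32.1 to 68.6 TPM in set B. Slc25a5 was at 9.74 to 22.5 TPM in set A and 23.3 to 28.6 TPM in set B. The sets were drawn from the expression of other genes, and the share of all genes that part by set was not counted. The parting is therefore not read as a trait of these members. With set as a term, the difference of Slc25a13 was -0.19. In set A alone it was -0.36 and in set B alone -0.025, all with a limma adjusted p of 0.9998 or more. TubA holds 2 libraries of set A and control holds 3. Of the others, the branched-chain amino acid carrier gene Slc25a44 was at 31.001 ± 2.97 TPM in TubA oocytes and 34.3 ± 5.77 TPM in control oocytes, and the glutamate carrier gene Slc25a22 was at 25.5 ± 11.3 TPM in TubA oocytes and 28.5 ± 4.87 TPM in control oocytes (SD, n = 5 each). The second aspartate/glutamate carrier gene, Slc25a12, was at 3.55 ± 0.613 TPM in TubA oocytes and 3.84 ± 1.78 TPM in control oocytes (SD, n = 5 each), less than Slc25a13 in every library. Slc25a29 was listed at 0 in 7 of 10 libraries, namely all 5 TubA libraries and control replicates 2 and 5. It was at most 0.602 TPM in the remaining control libraries. The glutamate carrier gene Slc25a18 and the ornithine carrier gene Slc25a2 were under 1 TPM throughout.

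Both glutathione carrier genes were present in every library and 0 of 2 passed. Slc25a39, whose protein imports glutathione into the matrix, had 77.6, 61.9, 93.6, 72.4 and 98.97 TPM in TubA replicates 1 to 5, against 45.998, 69.03, 66.3, 95.2 and 94.9 TPM in control replicates 1 to 5. Control replicate 1 was lowest and TubA replicate 5 highest, and the groups overlapped. On the log2 scale the difference was 0.15 ± 0.23 (SE). Its paralog Slc25a40 was at 12.8 ± 3.29 TPM in TubA oocytes and 13.8 ± 6.91 TPM in control oocytes (SD, n = 5 each), below Slc25a39 in each library.

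Of the 9 cofactor and nucleotide carriers, 8 were tested and 0 passed, with 4 differences positive and 4 negative. Slc25a26 (ENSMUSG00000045100, chr6:94500331-94604672, plus strand), which brings the methyl donor S-adenosylmethionine into mitochondria, had 187, 129, 81.8, 113 and 98.8 TPM in TubA replicates 1 to 5, against 130.5, 245, 148, 141 and 143 TPM in control replicates 1 to 5. TubA replicates 2, 3, 4 and 5 lay below all control libraries, control replicate 2 was the highest, and TubA replicate 1 was above the other 4 control libraries. The log2 difference was -0.42, with a 95% interval of -0.95 to 0.12 (limma adjusted p = 0.9999). The gene overlaps Lrig1 on the other strand, at a mean of 26.05 TPM.

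Slc25a17 (ENSMUSG00000022404, chr15:81318911-81360812, minus strand), which encodes a carrier of the peroxisomal membrane known in human cells to move coenzyme A and related cofactors, had 74.4, 86.8, 3.96, 12.1 and 0.827 TPM in TubA replicates 1 to 5, against 1.899, 2.04, 2.58, 3.87 and 1.698 TPM in control replicates 1 to 5. TubA replicates 1 and 2 stood far above the other 8 libraries, TubA replicate 4 was next, and TubA replicate 5 was the lowest of all 10. The log2 difference was 2.18 ± 0.91 (SE), with a 95% interval of 0.19 to 4.16, an unadjusted p of 0.034 and a limma adjusted p of 0.9999. The exact two-sided permutation p over the libraries was 0.103. Without TubA replicates 1 and 2, which were left out after the data were seen, the difference was 0.56.

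The neighbours of Slc25a17 did not share the high values. St13, the nearest gene on the same strand, had 98.4, 65.7, 84.01, 257 and 98.7 TPM in TubA replicates 1 to 5, against 93.2, 108, 112, 154 and 106 TPM in control replicates 1 to 5. TubA replicates 1 and 2 were not its highest libraries. Mchr1, nearest on the other strand, was at most 0.285 TPM. The protein-coding Slc25a17-201 led in all 10 libraries, and 0% of the 31-base words of the gene occur in other genes. Why TubA replicates 1 and 2 were high was not tested. Both high libraries belong to set A. With set as a term in the fit over all 10 libraries, the difference was 2.56 (limma adjusted p = 0.9998). Set A alone (2 TubA against 3 control libraries) gave 4.69 on the log2 scale and set B alone (3 TubA against 2 control libraries) gave 0.44. Slc25a17 was past the adjusted threshold in set A alone, as were 0.104% of genes in that fit. The split was chosen after the data were seen and puts both high libraries in set A, so that call is not used as support. Whether the difference of Slc25a17 differs between the sets was not tested.

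**Figure D4:**
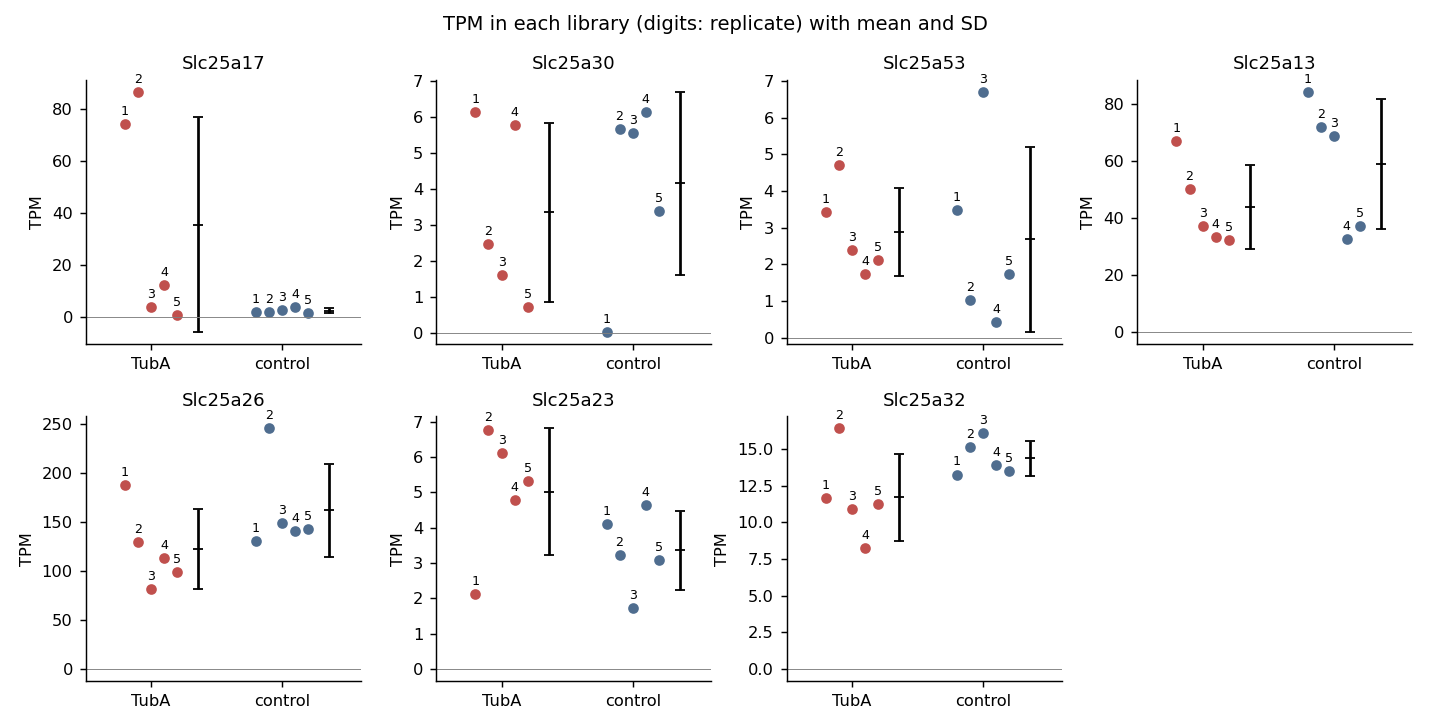
TPM of 7 Slc25a genes in each library, TubA in red left of control in blue, with the replicate number at each point and the mean and SD (n = 5) as a black bar. TubA replicates 1 and 2 stand at 74.4 and 86.8 TPM for Slc25a17 against at most 3.87 TPM in control libraries, Slc25a13 lies at 50.2 to 84.4 TPM in replicates 1 and 2 of TubA and 1 to 3 of control, and for each of the 7 genes the groups overlap.

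Slc25a32, the carrier known for bringing folate and FAD into mitochondria, had 11.7, 16.4, 10.9, 8.25 and 11.3 TPM in TubA replicates 1 to 5, against 13.3, 15.1, 16.1, 13.9 and 13.5 TPM in control replicates 1 to 5. TubA replicate 2 was the highest library, the other 4 TubA libraries lay below all 5 control libraries, and the log2 difference was -0.30 ± 0.22 (SE; limma adjusted p = 0.9999). Its leading transcript, Slc25a32-204, is annotated as a target of nonsense-mediated decay, the pathway that destroys messages with an early stop codon. It held 89.0% to 91.6% of the gene in every library, and the protein-coding transcripts were at 1.101 ± 0.201 TPM in TubA oocytes and 1.296 ± 0.161 TPM in control oocytes (SD, n = 5 each). Slc25a32-204 has 1837 bases in 5 exons and leaves out 2 internal exons of the 7-exon Slc25a32-201, of 86 and 161 bases. Together these are 247 bases, which leaves a remainder of 1 when divided by 3, the length of a codon. The junction is shown on the minus strand, with the shared exon end in lower case and, in capitals, the exon that follows, at chr15:39098213-39105861 and chr15:39102039-39105861.
Slc25a32-204: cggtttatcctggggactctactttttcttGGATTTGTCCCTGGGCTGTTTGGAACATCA
Slc25a32-201: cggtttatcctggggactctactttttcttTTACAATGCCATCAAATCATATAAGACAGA
Of the 31-base words of Slc25a32-204, 1.61% occur in no other transcript of the gene. The other cofactor and nucleotide carriers were Slc25a16, linked to coenzyme A, at 22.1 ± 6.06 TPM in TubA oocytes and 21.7 ± 4.59 TPM in control oocytes, and the mitochondrial NAD carrier gene Slc25a51, at 4.77 ± 0.842 TPM in TubA oocytes and 6.298 ± 1.83 TPM in control oocytes (SD, n = 5 each). The pyrimidine nucleotide carrier genes Slc25a36 and Slc25a33 were at 7.005 ± 3.101 TPM in TubA oocytes and 6.46 ± 2.703 TPM in control oocytes for Slc25a36 and 1.66 ± 0.859 TPM in TubA oocytes and 2.401 ± 1.302 TPM in control oocytes for Slc25a33. Slc25a42, which moves coenzyme A, was under 1 TPM in all libraries.

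The uncoupling-protein-like members, relatives of the proton-conducting Ucp1, were carried by Slc25a14, and 0 of 2 tested passed. Slc25a14 had 45.2, 57.5, 52.3, 46.2 and 54.97 TPM in TubA replicates 1 to 5, against 72.2, 61.1, 46.02, 49.8 and 43.6 TPM in control replicates 1 to 5. Control replicate 1 was highest and control replicate 5 lowest, so the TubA values lay inside the control range. TubA minus control was -0.070 ± 0.19 on the log2 scale (SE). Slc25a14-207, a processed transcript of 724 bases, held 58.8% to 74.2% of the gene, and protein-coding transcripts made up 24.6%. Slc25a14-207 and the leading coding form Slc25a14-208 enter the same exon from different exon ends. The sequences run along the plus strand of chrX:48623814-48629266 and chrX:48624192-48629266, with the differing exon end in capitals.
Slc25a14-207: GCTGAGCTTGAGCAGcatcagaaaagttcc
Slc25a14-208: GTGATTGTAAGCGGAcatcagaaaagttcc
Only 2.88% of the 31-base words of Slc25a14-207 and 0% of those of Slc25a14-208 occur in no other transcript of the gene. Here too the shares rest on estimation.

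Slc25a30 was 1 of 2 members that were at 5 TPM or more in some libraries and under 0.5 TPM in others. It had 6.14, 2.48, 1.603, 5.78 and 0.7296 TPM in TubA replicates 1 to 5, against 0.029, 5.67, 5.54, 6.14 and 3.39 TPM in control replicates 1 to 5. Control replicate 1 was near 0, TubA replicate 5 was the next lowest, and the other libraries of both groups ran from 1.603 to 6.14 TPM. The second such member was Slc25a53, for which no substrate is given here, with 3.43, 4.72, 2.402, 1.74 and 2.11 TPM in TubA replicates 1 to 5, against 3.49, 1.03, 6.71, 0.418 and 1.74 TPM in control replicates 1 to 5. Both the highest and the lowest library were controls. It overlaps Zcchc18 on the other strand, at a mean of 0.821 TPM. The 2 genes make up 6.25% of tested members, against 9.04% of all tested genes that were on and off by the same rule. Slc25a27, the third uncoupling-protein-like gene, had 2.99 TPM in control replicate 3 and under 1 TPM in the other 9 libraries.

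Among the carnitine carrier and its sequence relatives, 1 gene of 4 was tested and it did not pass. Slc25a48, linked in human cells to mitochondrial choline import, had 64.3, 61.3, 62.3, 80.7 and 67.1 TPM in TubA replicates 1 to 5, against 61.1, 82.8, 57.2, 70.3 and 62.4 TPM in control replicates 1 to 5. It was the steadiest of the members with a mean of at least 20 TPM, with a 1.45-fold range over the 10 libraries, and the log2 difference was 0.013 ± 0.17 (SE). The carnitine/acylcarnitine carrier gene Slc25a20, needed to burn long fatty acids, was at 0.499 ± 0.565 TPM in TubA oocytes and 0.618 ± 0.525 TPM in control oocytes (SD, n = 5 each), and Slc25a45 was listed at 0 in 9 of 10 libraries. The mitoferrin genes Slc25a37 and Slc25a28, iron importers, were not tested. Slc25a37 was at most 0.0395 TPM and Slc25a28 at most 1.91 TPM. Slc25a46, which acts in the outer membrane on fusion and fission, was at 3.37 ± 0.907 TPM in TubA oocytes and 3.62 ± 0.998 TPM in control oocytes (SD, n = 5 each).

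Slc25a35, a member with no substrate given here, ranged over 10.3 to 68.6 TPM in TubA libraries and 21.7 to 41.4 TPM in control libraries, and the groups overlapped. Its 652-base processed transcript Slc25a35-203 held 48.3% to 60.3% of the gene and led in 9 of 10 libraries, the exception being TubA replicate 1, where the coding Slc25a35-202 held 50.8%. Over all libraries, protein-coding transcripts made up 43.3%. Slc25a35-203 is spliced into a stretch that the coding Slc25a35-202 reads through without a break, shown along the plus strand of chr11:68968166-68968767 and chr11:68968738-68968767 with the differing bases in capitals.
Slc25a35-203: TGCAGACTACCTCGGggagaactgcaggcc
Slc25a35-202: AGAATGCAATTGCAGggagaactgcaggcc
Slc25a35 shares 27.4% of its 31-base words with its opposite-strand neighbour Rangrf, and reads of the 2 cannot be told apart without strand. The remaining members of no given substrate, Slc25a34, Slc25a43 and Slc25a54, were under 1 TPM in each library.

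Across the family, 26 of the 32 members with a mean of at least 1 TPM were led by a protein-coding transcript and 6 by another type. These were Slc25a3, Slc25a14, Slc25a35, Slc25a4, Slc25a32 and Slc25a12. The share led by another type was 18.75%, beside 17.5% of the 10891 protein-coding genes tested. Protein-coding transcripts held 82.0% of the family's TPM, with 76.1% to 85.4% in single libraries. A single transcript led in all libraries for 23 of the 32 members, and for 19 members at least 90% of the level was protein-coding.

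**Figure D5:**
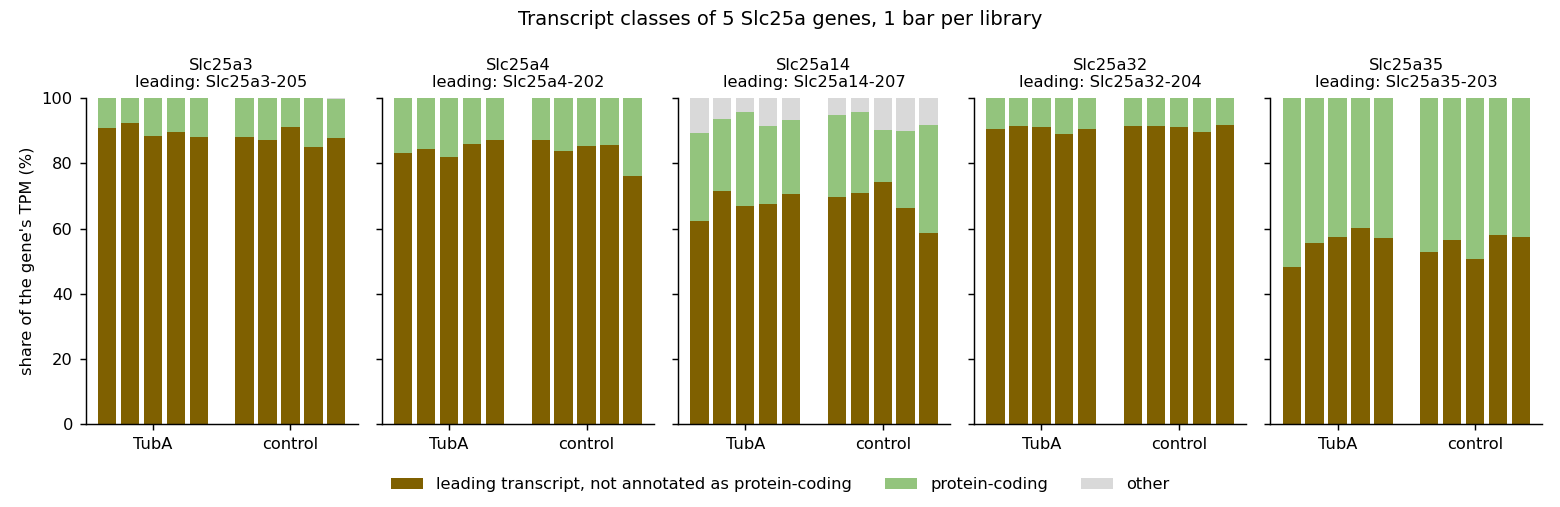
Share of the gene's TPM, in percent, held by the transcript of highest mean, by protein-coding transcripts and by other types in 5 Slc25a genes, with 1 bar per library, the 5 TubA libraries left of the 5 control libraries. The transcript of highest mean, not protein-coding in each of the 5, holds 85.0% to 92.4% of Slc25a3, 89.0% to 91.6% of Slc25a32 and 48.3% to 60.3% of Slc25a35, where coding transcripts exceed it in TubA replicate 1.

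The highest library exceeded the lowest by a median of 2.19-fold for members with a mean of at least 20 TPM, beside 2.49-fold for all 4596 genes at that level. At 1 TPM or more, 30 to 34 members were present in a library, and 26 in all 10 libraries.

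The wider machinery was set beside the family. Of the 5 family members without the prefix, Mtch1 was the 1 tested, at 4.25 ± 2.42 TPM in TubA oocytes and 4.67 ± 2.96 TPM in control oocytes, and it did not pass. Ucp2 and Mtch2 were under a mean of 1 TPM in each group, and Ucp1 and Ucp3 were listed at 0. Of 13 genes found for the import of carriers into the inner membrane, 10 were tested and 0 passed, with 5 differences positive and 5 negative and a median of -0.022. The small Tim chaperone gene Timm9 was at 205 ± 49.97 TPM in TubA oocytes and 183 ± 66.8 TPM in control oocytes, the TIM22 subunit gene Agk was at 41.96 ± 11.1 TPM in TubA oocytes and 47.7 ± 13.4 TPM in control oocytes, and the small Tim gene Timm8b was at 27.95 ± 10.9 TPM in TubA oocytes and 29.5 ± 2.48 TPM in control oocytes (SD, n = 5 each). Levels in this list were uneven. Timm22, Timm10 and Tomm70a, which were not tested, averaged 0.246, 0.659 and 0.678 TPM over the libraries. Of 21 genes of other mitochondrial membrane transport, 17 were tested and 0 passed, with 11 differences positive and 6 negative and a median of 0.078. The calcium uniporter gene Mcu was at 268 ± 78.1 TPM in TubA oocytes and 402 ± 138 TPM in control oocytes, and the outer-membrane channel gene Vdac3 was at 139 ± 169.9 TPM in TubA oocytes and 83.1 ± 46.5 TPM in control oocytes (SD, n = 5 each). Vdac3 ran from 50.3 to 443 TPM in TubA libraries and 45.6 to 164 TPM in control libraries, so its TubA mean leans on its highest library. None of the genes in these lists had an unadjusted limma p under 0.05.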

How the data were processed

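Per the labels, 10 libraries were made from single ICR oocytes, 5 with TubA and 5 controls. The deposited files hold TPM per Ensembl transcript, read from the values, which sum to 1000000 per library. The submitters' processing notes name mm10 and Bowtie 0.12.2. What program made the TPM, with which annotation and strand setting, is not given in the sources used here. Transcripts were summed to genes with GENCODE M21 on GRCm38 (113492 matched, 1778 not, the unmatched holding 0.531% to 0.753% of TPM). Without depth, precision comes from how far libraries of a group differ. No 2 files were identical.

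Genes averaging 1 TPM or more were tested with limma 3.58.1 in R 4.3.3 on log2(TPM + 1), with trend and robust moderation, without covariates, and Benjamini-Hochberg adjustment over 11664 genes at 0.05. A pseudocount of 1 understates the change of low genes. The procedure was tested on 20 simulated data sets, each with 200 changed genes drawn from the more abundant ones. It recovered 32.75% of 2-fold changes and 83.65% of 4-fold changes, and 5.69% of its calls were false. Most simulated 2-fold changes were thus missed. The simulated noise was independent between genes and libraries, without the library sets. In the data 1 gene passed, so the adjustment was stricter there than in the simulations. These rates therefore do not give the sensitivity of the test on the data, least of all for low members. Exact two-sided permutation tests used all 252 assignments, with a smallest p of 0.0079. Library sets came from complete-linkage clustering on 1 minus the correlation, cut into 2. Sequence sharing was counted in words of 31 bases. Other steps used Python 3.11.15, pandas 2.3.3, numpy 2.4.6 and matplotlib 3.10.9. Sequences are GENCODE transcripts.

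Members and lists were chosen with earlier results of these data known. Values in every library are given for the 8 most abundant members, those at 5 TPM or more in 1 library and under 0.5 TPM in another, the 6 of smallest unadjusted p, and any past the threshold or without overlap between groups at a mean of at least 5 TPM. From each other list the 3 of highest mean are named, with some of the lowest beside them. The values of 2 genes that this rule names are not reported here. Alternatives were other pseudocounts (0.1 and 5), filters, scalings, library weights, a replicate block, protein-coding transcripts alone, summing with copies and leaving out each library.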

Additional observations from a re-analysis of the deposited data

Results flagged for a closer look

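Single libraries stood apart from the other 4 of their group, on the log2(TPM + 1) scale by Dixon's criterion, in 7 of 64 groups examined (32 tested members in each of TubA and control), or 10.9%, beside 7.56% of the groups of all genes tested. For normally distributed values the criterion marks about 1 in 20 by chance. The background for these data is the 7.56% over all genes tested. Among the TubA libraries, Slc25a3 was highest in replicate 4 at 168.8 TPM, Slc25a38 was lowest in replicate 4 at 79.3 TPM, and Slc25a21 was highest in replicate 3 at 3.86 TPM. Among the control libraries, Slc25a26 was highest in replicate 2 at 245.0 TPM, and Slc25a44 was highest in replicate 3 at 44.4 TPM. Control replicate 1 was lowest for Slc25a30, at 0.029 TPM, and for Slc25a10, listed at 0 TPM. TubA replicate 4 and control replicate 1 each appear for more than 1 member. None of the marked values belongs to Slc25a17, whose high TubA libraries are a pair.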

How the results depend on the processing

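The count of members past the threshold stayed at 0 under each alternative, including leaving out each library, except in set A alone, a split made after seeing the data, where it was 1 (Slc25a17). The median difference ranged from -0.092 to 0.023 when single libraries were left out. The direction of Slc25a17, Slc25a26, Slc25a38, Slc25a3, Slc25a23, Slc25a32 and Slc25a13 held under all alternatives, but single libraries moved several of these values. Without TubA replicate 4, Slc25a3 was -0.62, Slc25a38 was -0.0081 and Slc25a32 was -0.196. Slc25a3 was -0.18 without TubA replicate 3, -0.14 without TubA replicate 5 and -0.16 without control replicate 4. Slc25a26 was -0.26 without control replicate 2, Slc25a13 was -0.22 without control replicate 1, and without control replicate 3 Slc25a38 was -0.066 and Slc25a23 was 0.29. Slc25a17 was 1.599 without TubA replicate 1, 1.54 without TubA replicate 2 and 1.78 with library weights.

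Of 372 combinations of a named gene and an alternative, 28 reversed. The cause was not tested. Slc25a15 was 0.0067 with median centring. Slc25a48 was -0.0033 with quantile normalisation and -0.079 with library weights. Slc25a30 was 0.11 with a pseudocount of 0.1. The sets of libraries and the removal of TubA replicates 1 and 2 were chosen after seeing the data. Slc25a48 was -0.0024 with set as a term. In set A alone, Slc25a48 was -0.075 and Slc25a30 was 0.49. In set B alone, Slc25a31 was 0.0057, Slc25a39 was -0.12 and Slc25a14 was 0.13. Without TubA replicates 1 and 2, Slc25a15 was 0.20 and Slc25a53 was -0.00035.

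Leaving out single libraries gave -0.13 to 0.045 for Slc25a31, -0.0081 to 0.25 for Slc25a39, -0.055 to 0.092 for Slc25a48, -0.14 to 0.13 for Slc25a15, -0.14 to 0.036 for Slc25a14 and -0.69 to 0.10 for Slc25a30. The count of on-and-off members was 1 to 2 over these fits, with 1 without control replicate 1, 3 or 4. That count was 1 with levels of 10 and 1 TPM and 5 with levels of 1 and 0.1 TPM. The family's sum was 897 TPM in TubA and 918 TPM in control libraries from protein-coding transcripts alone, and 969 TPM in TubA and 960.0 TPM in control libraries without the most abundant member, which turns the order of the group means.

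Replicate numbers are shared by the groups without any label that pairs them. Correlations of same-numbered deviations ran from -0.31 to 0.48, and 4 of 10 libraries correlated best with their own number. Replicates 1 and 2 of both groups fell in set A, replicates 4 and 5 of both groups in set B, and replicate 3 was split. These values do not settle whether the numbers pair the samples. With a replicate block, 0 members passed, as without it, and Slc25a17 was 2.18. With depth unknown, members near 0 TPM cannot be told from absent ones.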
